A study of Danio rerio with 6 samples.

Results

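Erythrocytes were followed among the dissociated cells of zebrafish melanomas and the tissue around them. They were defined as cells with at least 200 detected genes, at most 20% of UMIs (unique molecular identifiers, 1 for each captured transcript) from mitochondrial genes, and at least 20% of UMIs from the adult globin genes hbaa1 and ba1. The rule selected 254 of 2782 cells. Sample E held 247 of them among 1780 cells (13.9%, exact 95% interval 12.3 to 15.6%), and sample F held 7 among 1002 cells (0.699%, 0.281 to 1.43%). The intervals cover counting error only, and the cells of a sample share 1 library.

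An erythrocyte is filled with hemoglobin, a tetramer of alpha-like and beta-like globin chains that each carry a heme group. Heme is built in a fixed series of steps that starts and ends in the mitochondrion, with iron delivered through the transferrin receptor. Fish carry separate sets of embryonic and adult globin genes, several of them in near-identical copies. Unlike those of mammals, circulating fish erythrocytes keep a nucleus, and as they mature globin mRNA comes to dominate what RNA is left.

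The fish were adults of a transgenic line (casper; mitfa-BRAFV600E; p53-/-; mitfa-/-) in which plasmids with mitfa-MITF and mitfa-GFP had been injected into embryos, so that both transgenes and human BRAF V600E are driven by the melanocyte promoter mitfa and pigmented GFP+ tumors form. Tumor with adjoining tissue was cut out, digested with liberase, and sorted against debris and doublets, and as many GFP+ as GFP- cells were taken for droplet scRNA-seq of transcript 3′ ends. This sort set the makeup of both samples, so the share of erythrocytes is not their share in the tissue. Nuclei of 3 such fish, sorted in the same GFP proportions, made up 1 further library. Samples E and F were taken as 1 fish each from their labels, but the sources differ on how many fish were used, and nothing says whether the samples differ by animal or by preparation. No fish without a tumor was compared.

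The deposited tables held 1911 barcodes with 33314558 UMIs for sample E and 1085 barcodes with 14364782 UMIs for sample F, and the samples shared 0 barcodes. The rule chose the cells by hbaa1 and ba1, so the levels of these genes are given as a description. In sample E the share of UMIs in hbaa1 and ba1 ran from 20.5% to 77.9% per erythrocyte with a median of 61.3%. The 7 erythrocytes of sample F had 66.3%, 49.4%, 45.9%, 39.7%, 25.3%, 25.1% and 23.5%. All but 1 of them thus lay below the median of sample E. Around the threshold the nearest cells inside had 20.5%, 21.0% and 21.2% in sample E and the nearest outside had 19.9%, 18.7% and 18.6%. In sample F the nearest outside had 12.6%, 5.22% and 4.63%. A further 26 barcodes of sample E and 2 of sample F passed the globin threshold but had under 200 genes and were left out.

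**Figure D1:**
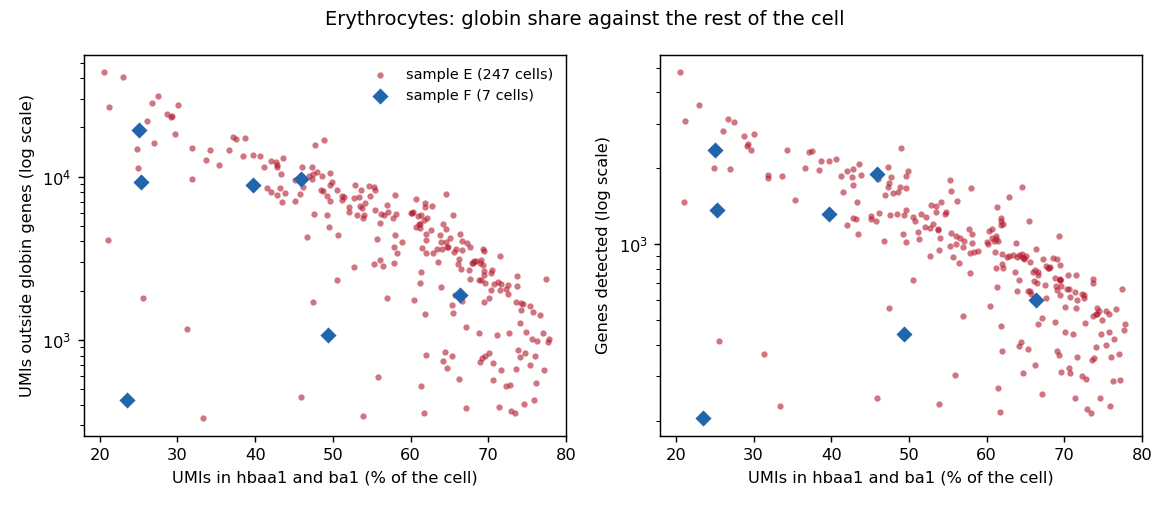
Each point is 1 erythrocyte of sample E (red circles, 247 cells) or sample F (blue diamonds, 7 cells), placed by its percentage of UMIs in hbaa1 and ba1 (x axis), with UMIs outside all globin genes (left) and genes detected (right) on log axes. Cells with a higher globin share had fewer UMIs outside globins and fewer genes, and 6 of the 7 cells of sample F lay below a share of 50%.

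Erythrocytes had at least as many UMIs as other cells at the median but drew them from fewer genes. Their median was 16432 UMIs in sample E and 16548 in sample F, against 16143 and 8832 UMIs for all other cells. Median genes detected were 906 and 1324 in erythrocytes, against 2340 and 1713 in other cells. With every globin gene counted, globins took a median of 72.3% of an erythrocyte's UMIs in sample E, up to 91.4%, and 60.6% in sample F. A median of 3976 UMIs per cell in sample E and 8887 in sample F remained outside the 17 globin genes. These summed to 1470848 UMIs over the erythrocytes of sample E and only 50573 over those of sample F, so that 3 UMIs, the limit a count of 0 allows, stood at 2.04 CPM in E and 59.3 CPM in F. Throughout, CPM is the number of UMIs of a gene per 1000000 UMIs outside globin genes. A gene at 59.3 CPM or less in erythrocytes of F thus rests on at most 3 UMIs there.

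The other 2 erythrocyte markers, which the rule did not use, were high in the cells it chose. The carbonic anhydrase gene cahz, whose product converts carbon dioxide and bicarbonate in red cells, stood at 7486 and 8087 CPM in erythrocytes of E and F, against 16.4 CPM in other cells of E and 26 CPM in other cells of F. The gene alas2, which encodes the erythroid enzyme of the first step of heme synthesis, stood at 4034 and 2689 CPM in erythrocytes of E and F, against 14.1 and 5.87 CPM in other cells. When each cell was thinned to 2000 UMIs, 92.5% of 240 erythrocytes of sample E held an alas2 UMI (88.4 to 95.5%) and 97.1% a cahz UMI (94.1 to 98.8%), and all 6 cells of F deep enough to be thinned held both. Among other cells the share with alas2 was 1.32% in sample E and 0.695% in F, and with cahz 2.50% and 2.32%. Thinning left out 7 erythrocytes of E and 1 of F, and 91 and 132 other cells. Without thinning the share with alas2 was 98.8% in erythrocytes of E. The globins themselves did not separate the cells so cleanly: at 2000 UMIs, an hbaa1 UMI was present in 32.5% of other cells of sample E and 7.88% of those of F. Erythrocytes nevertheless held 95.9% of all hbaa1 and ba1 UMIs in sample E and 83.7% in sample F.

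Markers of other cell types were low in the erythrocytes, except 2 thrombocyte markers that are given further on. Of 12 leukocyte markers, 7 had no UMI in the erythrocytes of sample E and 10 had none in those of F, and the list summed to 29.2 and 59.3 CPM in erythrocytes of E and F, against 1620 and 3836 CPM in other cells. The actin regulator coro1a, a general leukocyte marker, was at 0 UMIs in both sets of erythrocytes. Against 82.5 CPM in other cells of E and 173 CPM in those of F, it was at least 40.5-fold lower in E and at least 2.91-fold lower in F. The 10 tumor and pigment markers summed to 390 CPM in erythrocytes of E and to 0 UMIs in those of F, against 4004 and 3821 CPM in other cells. In sample E these 574 UMIs fell in 46 erythrocytes, and 399 of them in 1 cell with 57974 UMIs and a globin share of 20.5%, the deepest of all erythrocytes. UMIs of human BRAF were found in 17 erythrocytes of sample E, and 42 of its 84 UMIs were in that same cell. Whether the cell was a doublet was not tested. Liver and epithelial markers summed to 230 and 119 CPM in erythrocytes of E and F, against 1683 and 3755 CPM in other cells. Germ cell markers had 0 UMIs in erythrocytes of both samples and muscle markers had 2 in E and 0 in F.

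The adult globin genes differed between the samples in which copies were used. On the alpha side hbaa1 took 36.8% of all adult globin UMIs in erythrocytes of sample E and 27.8% in those of F, and its neighbor hbaa1.2 took 15.5% and 14.4%. On the beta side the major ba1 gene took 38.6% in E and 30.9% in F, and a second gene of the same symbol 8.20% and 8.56%. The remaining pair, alpha hbaa2 and beta hbba2, was minor in sample E, at 0.103% and 0.698%, but reached 5.82% and 12.5% in sample F. Together hbba2 and hbaa2 made up 0.801% of adult globin UMIs in E (0.791 to 0.812%) and 18.3% in F (18 to 18.6%). Cell by cell the samples did not overlap: the pair's share ran up to 6.66% in sample E, with a median of 0.492%, and from 11.4% to 27.3% in sample F, with a median of 13.7%.

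The pair's share was also taken over narrower and other sets of barcodes. Within the same erythrocytes, among those with 20 to 50% of UMIs in hbaa1 and ba1, 69 of E and 6 of F, it was 0.786% in E and 19.8% in F. In the globin UMIs that other cells carried it was 0.355% in E and 16.3% in F. The globin-rich nuclei described further on stood between, at 4.56%. With 1 sample on each side, no test across fish was possible, and since the copies are close in sequence, the reads of 1 copy may have been counted for another. Alpha genes as a whole took 52.5% of adult globin UMIs in erythrocytes of E and 48.0% in those of F, and hbaa1 took 44.0% and 41.3% of the UMIs of hbaa1 plus ba1.

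**Figure D2:**
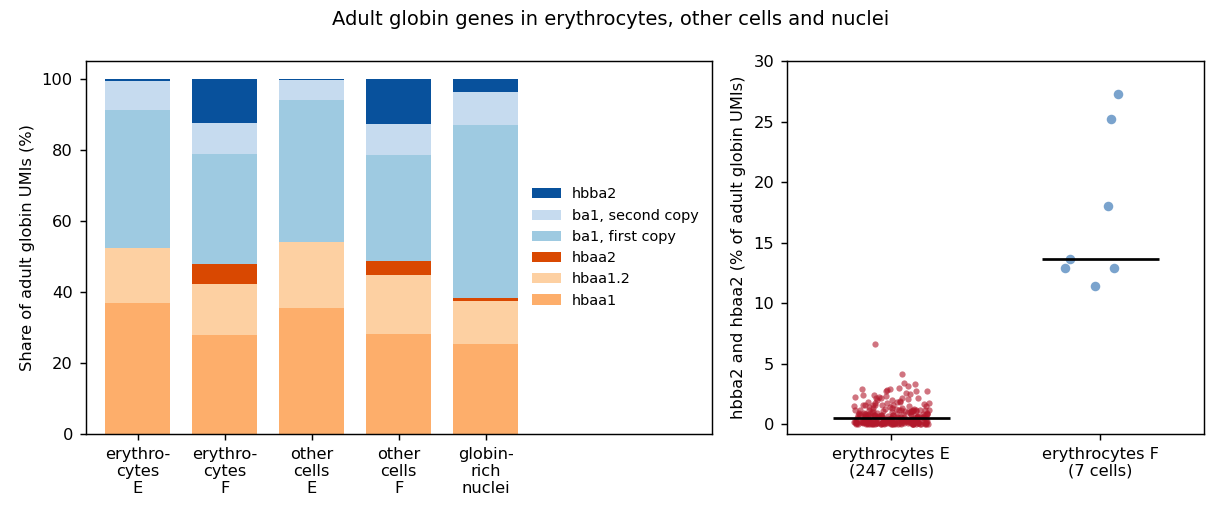
The left panel stacks the percentages of adult globin UMIs taken by 6 adult globin genes in erythrocytes of samples E and F, other cells of E and F, and globin-rich nuclei. The right panel plots the percentage taken by hbba2 and hbaa2 in each erythrocyte with a line at the median, where sample F (11.4 to 27.3%) lies wholly above sample E (0 to 6.66%).

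Embryonic globin transcripts were present at trace levels. In erythrocytes of sample E the embryonic alpha genes summed to 5270 UMIs and the embryonic beta genes to 610, against 2604290 adult globin UMIs, and in those of F to 117 and 3, against 68252. They were spread unevenly over cells. The neighboring embryonic alpha genes hbae1.2 and hbae1.3, which share 1 symbol in the files, had 3116 UMIs in 88 of the 247 erythrocytes of E, and 479 of these were in 1 cell. The gene hbae4, listed as HBZ, had 1287 UMIs in 210 cells with at most 24 in any of them. The gene hbae5, listed as hbz, had 860 UMIs in 89 cells with up to 126 in 1. On the beta side, 111 of the 204 UMIs of hbbe1.2 came from a single cell. The embryonic hbae3 showed the opposite placement, with 1 UMI in erythrocytes of E and 76 in other cells of E, and hbbe3 had none in erythrocytes.

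Erythrocytes were next compared with all other cells, gene by gene, by summing UMIs per sample over the erythrocytes and over the rest. Because the cells had been chosen by their own globin RNA, genes with the symbols ba1 or ba1l or symbols starting with hba or hbb were left out of this fit, and each p-value measures only the spread between 2 samples. edgeR's quasi-likelihood test, with Benjamini-Hochberg adjustment over 11153 genes at 0.05, called 441 genes higher (3.95% of genes tested) and 753 lower (6.75%). A fit that kept the fish as a block gave 318 (2.85%) and 236 (2.12%). The median log2 fold change over all genes was -0.53, and log2 fold changes below are given relative to it. The calls, SE and adjusted p given with them belong to the change before this shift. Each SE was worked back from that change and its test statistic. Globin genes under other symbols stayed in and made up 8 of the 441, and with all 17 left out 433 genes were higher and 795 lower. DESeq2's size factors put that median at -1.0 and gave 445 genes higher and 2323 lower. The calls rested on sample E, whose erythrocytes carried most of the UMIs: without them 0 genes were called higher and 0 lower (1097 genes at an unadjusted p under 0.05), and without those of F 169 and 3. Without other cells of E the counts were 705 and 1919, and without those of F 585 and 2192. Of the 441 higher genes, 340 were higher in both samples and the other 101 had no UMI in erythrocytes of F. Of the 753 lower genes, 718 were at 0 UMIs in erythrocytes of F, and for 469 of these other cells of F were themselves under the limit of 59.3 CPM, so that a lower level in F is not shown. In erythrocytes of E 357 were at 0 UMIs, and 22 of these were under the limit in other cells. In bulk sums of this kind, fewer cells with a transcript and less of it per cell cannot be told apart.

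Heme synthesis genes were high in erythrocytes as a group. Of 16 genes tested, 13 rose and 0 fell, with a median log2 fold change of 5.24, against 3.95% higher among all genes. alas2 itself was 8.92 higher on the log2 scale (SE 1.59, adjusted p = 2.68e-05), the highest of the 16. The cytosolic enzyme hmbsb, which links porphobilinogen units into a chain, had 714 and 672 CPM in erythrocytes of E and F, against 8.04 and 3.96 CPM in other cells, and rose by 7.30 (SE 1.34, adjusted p = 6.39e-05). The last enzyme, fech, which inserts iron into the ring, had 87.0 and 59.3 CPM against 1.66 and 0.566 CPM in other cells (log2 fold change 6.64, SE 1.09, adjusted p = 4.82e-06). In F fech rested on 3 UMIs. Every enzyme in between rose as well: alad, hmbsa, uros, urod, cpox and ppox had log2 fold changes from 4.95 to 6.19. Mitochondrial carriers followed, with slc25a37, which brings iron into the mitochondrion, at 5.41, slc25a39 at 4.51 and tmem14ca, which moves a porphyrin intermediate, at 5.05. The transporter abcb10 passed without the block (log2 fold change 3.29, adjusted p = 0.0387) but not with the fish as a block (adjusted p = 0.242, with a range of 0.00575 to 0.976 over its alternatives). Neither the iron-sulfur protein glrx5, at 381 and 316 CPM in erythrocytes of E and F against 40.5 and 68.4 CPM in other cells, nor the glycine carriers slc25a38a and slc25a38b passed.

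The tested genes of the red cell membrane set were higher still. Of 21 genes found, 14 had enough UMIs to be tested. Another 6 had no UMI in erythrocytes of E and were not tested, so the counts and the median leave out silent genes. Of the 14 genes tested, 12 rose and 0 fell, against 3.95% higher and 6.75% lower among all genes. Their median was 6.41, and the block also gave 12 and 0. The anion exchanger slc4a1a, which swaps chloride for bicarbonate, had 3212 CPM in erythrocytes of E and 2531 CPM in those of F, against 37.4 and 8.41 CPM in other cells (log2 fold change 7.41, SE 1.48, adjusted p = 0.000326). The beta spectrin sptb, part of the lattice under the membrane, had 318 and 316 CPM against 4.04 and 1.41 CPM (7.27, SE 1.26). Its partners epb41b (7.51), add2 (6.51) and dmtn (4.51) and the actin-capping tmod4 (8.38) rose too. So did the blood group genes kel (7.53) and rhd (6.31), the ammonia channel gene rhag (5.83), the water channel aqp1a.1 (6.98), creg1 (5.88) and the cholesterol-binding tspo (5.10). The glucose transporter slc2a1b did not pass, at 12.2 CPM and 0 UMIs in erythrocytes of E and F against 12.3 and 12.5 CPM in other cells, nor did the scaffold gene mpp1.

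Of 18 erythroid transcription factors and receptors, 15 had enough UMIs to be tested. Among these 15, 8 rose and 0 fell, with a median of 5.16, against 3.95% higher among all genes. klf1, the activator of the adult beta-globin genes in mammals, had 128 and 59.3 CPM in erythrocytes of E and F, against 1.42 and 0.353 CPM in other cells (log2 fold change 7.39, SE 1.15, adjusted p = 8.08e-07). klf17, a relative with a part in embryonic blood formation in zebrafish, had 336 and 633 CPM against 6.21 and 1.77 CPM (7.11). gata1a, the central erythroid regulator, had 27.9 and 98.9 CPM against 0.828 and 0.777 CPM (6.29), and the repressor gfi1b rose by 7.02. tal1 (5.36) and lmo2 (5.16), members of a complex with GATA1, the erythropoietin receptor epor (6.29) and foxo3a (5.47) also rose. Among blood progenitor genes, spi1b, cebpa and gata2a of myeloid and stem cells fell, and spi1b was at 0 UMIs, at least 32.7-fold lower in E and 2.35-fold lower in F. ikzf1 rose (41.5 and 19.8 CPM against 6.04 and 8.13 CPM) but not with the block (adjusted p = 0.206, with a range of 0.0257 to 0.877 over its alternatives). In F ikzf1 rested on 1 UMI.

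Of 3 thrombocyte markers with enough UMIs to be tested, 2 rose in erythrocytes. gp9, a subunit of the platelet adhesion receptor, had 283 and 178 CPM in erythrocytes of E and F, against 1.1 and 0.777 CPM in other cells (log2 fold change 8.54, SE 1.3, adjusted p = 5.25e-07). Its partner gp1bb had 161 and 138 CPM against 2.24 and 2.54 CPM (6.58). After thinning to 2000 UMIs, gp9 was found in 22.9% of erythrocytes of E (17.8 to 28.8%) and 0.0693% of other cells of E. The thrombocyte markers itga2b, mpl and thbs1b were at 0 UMIs in the erythrocytes of both samples.

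For iron and redox genes the picture was mixed. The transferrin receptor tfr1a had 184 and 59.3 CPM in erythrocytes of E and F, against 1.28 and 0.495 CPM in other cells (log2 fold change 7.84, SE 1.2, adjusted p = 6.12e-07). In F tfr1a rested on 3 UMIs. Biliverdin reductase blvrb stood at 3505 and 2412 CPM against 51.6 and 46.0 CPM (6.51). Of 18 iron and heme genes, 2 rose in all and 2 fell, against 3.95% and 6.75% of all genes. Those that fell were heme oxygenase hmox1a (4.76 CPM and 0 UMIs in erythrocytes of E and F against 37.3 and 208 CPM) and the iron exporter slc40a1 (0.680 CPM and 0 UMIs against 4.73 and 45.0 CPM). With the fish as a block neither passed, at adjusted p = 0.0688 for hmox1a and 0.241 for slc40a1, within ranges of 5.45e-05 to 0.689 and 0.000393 to 0.805 over their alternatives. Of 17 carbonic anhydrase and redox genes, 3 rose and 0 fell: cahz (9.04), peroxiredoxin prdx2 (4.43) and glutathione peroxidase gpx1a (4.18). prdx2 had 8114 and 6426 CPM in erythrocytes of E and F against 483 and 512 CPM, and gpx1a 3994 and 3263 CPM against 208 and 406 CPM.

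In other housekeeping groups most genes passed in neither direction. Over all genes tested, 3.95% were higher and 6.75% lower, and the shares of chromatin genes, 5.0% and 10%, were near these. Of 19 glycolysis genes, 1 rose and 4 fell, with a median of -2.13. The muscle phosphofructokinase pfkma rose, with 82.3 and 79.1 CPM in erythrocytes of E and F against 0.380 and 0.353 CPM in other cells (log2 fold change 8.32, SE 1.19), whereas eno1a, eno3, aldoaa and gapdh fell by 2.70 to 3.38. All 4 were at 0 UMIs in erythrocytes of F, and gapdh did not pass with the fish as a block (adjusted p = 0.156, with a range of 7.1e-05 to 0.715 over its alternatives). Of 22 cell cycle genes, 2 rose and 0 fell. Their median was 2.05, and 20 of the 22 lay above the median of all genes. The list summed to 3227 and 2926 CPM in erythrocytes of E and F, against 1069 and 2259 CPM in other cells. Those that rose were the ribonucleotide reductase subunits rrm1 (114 and 79.1 CPM against 15.1 and 13.1 CPM) and rrm2 (507 and 198 CPM against 24.9 and 53.7 CPM), which supply DNA building blocks. With the fish as a block neither passed, at adjusted p = 0.122 for rrm1 and 0.0685 for rrm2, within ranges of 0.00918 to 0.749 and 0.00189 to 0.724. In F all 10 rrm2 UMIs fell in 1 of the 7 erythrocytes. Of 15 autophagy and ubiquitin genes, 2 rose: bnip3lb, whose mammalian relative clears mitochondria from maturing red cells, at 411 and 178 CPM against 30.4 and 32.7 CPM, and ulk1b, at 6.12 CPM and 0 UMIs against 0.690 and 1.48 CPM. bnip3lb had an adjusted p of 0.0633 with the block, within a range of 0.000467 to 0.717. Of 20 chromatin genes, h2afx rose (192 and 593 CPM against 25.4 and 31.9 CPM), and h1f0 and hmgb3a fell, both at an adjusted p of 0.107 with the block, within ranges of 0.000626 to 0.756 and 0.00089 to 0.700. Of 86 ribosomal protein genes and 13 mitochondrial genes, 0 passed in either direction, but 84 and 13 lay above the median of all genes. Their median log2 fold changes were 0.75 and 0.80. Ribosomal protein genes took 44.9% and 45.3% of UMIs outside globins in erythrocytes of E and F, against 43.5% and 28.6% in other cells.

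**Figure D3:**
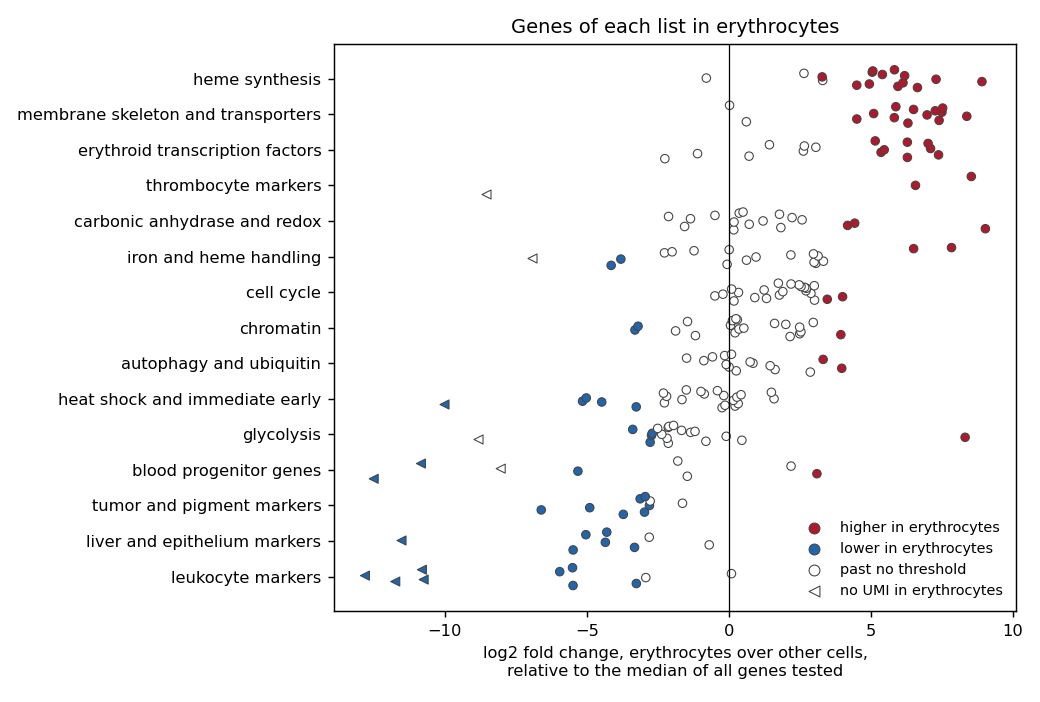
Each point is 1 tested gene placed by its log2 fold change in erythrocytes over other cells, relative to the median of all genes (x axis), in rows by gene list, with genes called higher in red, called lower in blue and neither in white; left-pointing triangles had no UMI in erythrocytes of either sample, so their position is no bound. Heme synthesis, membrane and erythroid factor genes lie to the right (medians 5.24, 6.41 and 5.16) and leukocyte genes to the left, where 8 of 10 fell.

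Beyond the lists, the genes with the largest rise were mostly unnamed. si:ch73-55i23.1 had 244 and 138 CPM in erythrocytes of E and F, against 0.172 and 0.141 CPM in other cells (log2 fold change 10.81, SE 1.43, adjusted p = 6.09e-09). si:ch211-103n10.5 had the most UMIs of the 12 named for their rise, at 18351 and 19319 CPM against 48.1 and 21.4 CPM (9.48, SE 1.8). si:dkey-25o16.2, which the gene name table gives as hemgn, a nuclear protein of blood cells, had 3511 and 3480 CPM against 19.6 and 8.69 CPM (8.37). The ankyrin ANK1 (1 of many), which ties spectrin to the anion exchanger, had 34.7 and 39.5 CPM against 0.172 CPM and 0 UMIs (8.85), with 2 UMIs in erythrocytes of F. The myristoyl transferase nmt1b (8.44), the nucleotidase nt5c2l1 (8.18) and cyp46a1.1 (8.13) rose as well, as did si:dkey-240n22.2, si:ch211-207b24.4, si:ch211-227m13.1 and CR293511.1. Of these, si:dkey-240n22.2 did not pass with DESeq2's Wald test (adjusted p = 0.0712) and rested on 3 UMIs in erythrocytes of F.

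Genes of other cells fell. Of 10 leukocyte markers tested, 8 fell, of 9 tumor and pigment markers 7 fell and of 8 liver and epithelial markers 6 fell, against 6.75% of all genes, and none of these rose. With the fish as a block 6, 6 and 4 fell. Against other cells without a transgene UMI, the log2 fold changes of the pigment genes dct and pmela, not set to the median, were 1.93 and 2.82. The lysozyme gene lyz had 19.7 and 19.8 CPM in erythrocytes of E and F, against 1312 and 2869 CPM in other cells (log2 fold change -5.95, SE 1.47, adjusted p = 0.000803). Human BRAF had 57.1 CPM and 0 UMIs, against 923 and 895 CPM (-3.71). The 8 genes named for the steepest fall had 0 UMIs in erythrocytes of both samples, so only bounds can be given. These bounds take a count of 0 as 3 UMIs and are not the exact 95% intervals. In sample E, si:dkey-119g10.4 was at least 27.2-fold lower, the immunoglobulin light chain gene igic1s1 at least 52.2-fold, and the chemokine gene ccl35.1 at least 19.4-fold. In sample F, where 7 cells set the limit, the bounds were 3.84 for si:dkey-119g10.4 and 1.70 for ccl35.1, and igic1s1 at 5.51 CPM in other cells was under the limit. With DESeq2's Wald test igic1s1 did not pass (adjusted p = 0.179). The remaining 5, si:ch1073-78m18.1, MFAP4 (1 of many), si:ch211-237b12.4, samsn1a and si:ch1073-429i10.1, were at least 12.5-fold to 51.3-fold lower in E. In F si:ch1073-78m18.1, at 25.9 CPM in other cells, was also under the limit, and the bounds of the other 4 were 1.17 to 1.83. For MFAP4 (1 of many) in F the exact 95% interval of the ratio reached 1.06, so a lower level there is not shown. Of 23 heat shock and immediate early genes 0 rose and 5 fell, among them fosb (12.9 CPM and 0 UMIs against 88.7 and 1325 CPM) and egr1 (5.44 CPM and 0 UMIs against 95.2 and 336 CPM).

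The erythrocytes of sample E were not uniform. They were divided by their share of UMIs in hbaa1 and ba1 into 29 cells with 20 to 40%, 84 with 40 to 60% and 134 with 60 to 80%, and the 18 other cells with 5 to 20%, outside the rule, were set beside them. Median genes detected were 2800, 2324, 1278 and 660 from the lowest band to the highest, and median UMIs outside globins 27454, 16158, 7440 and 2230. Across the 247 cells, Spearman's rho between globin share and UMIs outside globins was -0.80, and with genes detected -0.79. The points share 1 library, and both measures come from the same UMI totals, so this is a description.

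With the globin share, the RNA outside globins changed in makeup. CPM here is a share of that RNA, which shrank as the globin share rose, and not a level per cell. The bands held 18, 29, 84 and 134 cells. Over them slc4a1a had 740, 1076, 2200 and 1448 UMIs, klf1 22, 33, 68 and 88, and gp9 16, 30, 145 and 241. Per cell, slc4a1a and klf1 thus fell from the lowest band to the highest, while gp9 rose. cahz stood at 480, 1976, 7617 and 15505 CPM from the lowest band to the highest, and alas2 at 689, 1583, 4509 and 6863 CPM. slc4a1a changed less, at 1530, 2085, 3607 and 4200 CPM. By CPM, gata1a (2.07, 7.75, 29.5 and 55.1 CPM), klf1 (45.5, 63.9, 111 and 255 CPM) and tfr1a (43.4, 73.6, 167 and 377 CPM) were likewise highest in the top band. So were gp9, kel and bnip3lb. gata1a rested on 1, 4, 18 and 19 UMIs. Other erythroid genes were highest below the top band. hmbsb stood at 292, 562, 905 and 603 CPM, prdx2 at 3488, 5789, 9798 and 8618 CPM, and epor at 149, 211, 211 and 186 CPM. klf17 was highest in the band of 20 to 40%, at 484 CPM, and lowest at the top, at 145 CPM. Heat shock and immediate early genes summed to 5343, 5653, 16430 and 17225 CPM, and the nuclear noncoding RNA malat1 stood at 14916, 14352, 22476 and 31349 CPM. In the other direction, the progenitor factor myb stood at 308, 126, 14.8 and 14.5 CPM, and glycolysis genes summed to 1991, 1536, 869 and 519 CPM. Ribosomal protein genes took 52.0%, 49.6%, 43.9% and 39.6% of UMIs outside globins. Tumor and pigment markers also stood highest in the 2 lower bands, at 1059, 967, 86.9 and 63.8 CPM. The 967 CPM came from 499 UMIs, 399 of them in the 1 cell described above, and without that cell the band stood at 212 CPM. Leukocyte markers stood at 12.4, 9.69, 29.5 and 58.0 CPM. What RNA of other cells added to the lower bands was not tested.

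**Figure D4:**
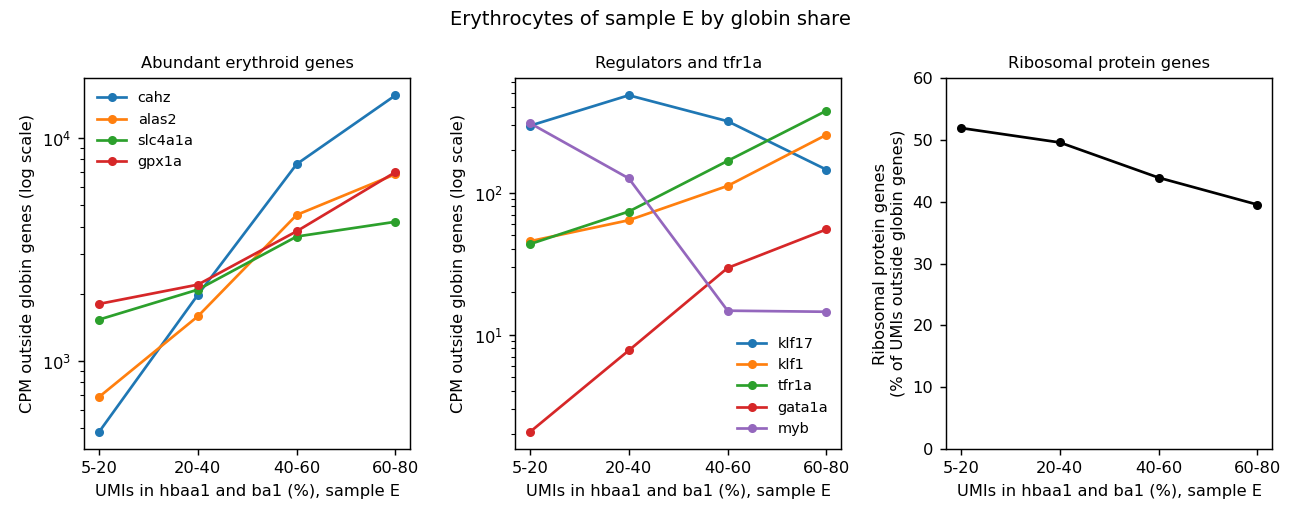
In sample E, the panels plot CPM outside globins (log axes) of cahz, alas2, slc4a1a and gpx1a (left) and of klf17, klf1, tfr1a, gata1a and myb (middle), and the percentage of UMIs in ribosomal protein genes (right), by band of the percentage of UMIs in hbaa1 and ba1. cahz goes from 480 to 15505 CPM and myb from 308 to 14.5 CPM over the 4 bands, the lowest of which holds 18 cells outside the rule.

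Cell cycle transcripts such as rrm2, pcna and mki67 sat mainly in a minority of erythrocytes, most of them with a globin share under 60%. rrm2 stood at 108, 604, 708 and 34.8 CPM over the 4 bands, the DNA clamp gene pcna at 273, 748, 502 and 14.5 CPM, and the proliferation marker mki67 at 76.5, 182, 239 and 58.0 CPM. At least 5 UMIs of rrm2 were found in 32 of the 247 cells, of pcna in 33 and of mki67 in 27. The sets shared cells: 23 cells had both rrm2 and pcna, which is 71.9% of the rrm2 cells and 69.7% of the pcna cells. The rrm2 cells had a median globin share of 43.3%, against 62.6% in the others, and 31 of 32 lay under 60%. They were also deeper, with a median of 11488 UMIs outside globins against 3461, which by itself raises the chance of reaching 5 UMIs. hbae1.2 and hbae1.3 reached 5 UMIs in 52 cells with a median globin share of 54.0%, and 14 of these were rrm2 cells.

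Between the erythrocytes of the 2 samples most erythroid genes compared lay within 2-fold in the pooled sums, as did most of all genes compared. Of 3639 genes with at least 10 UMIs in 1 of the samples, 69 were at least 4-fold higher in sample E (1.9%) and 23 at least 4-fold higher in sample F (0.632%), with no test across fish and with 7 cells on the side of F. Scaling by TMM, with factors of 0.812 for E and 1.23 for F, raised every ratio of E over F and gave 207 and 9. The ratios given here are without it, and the direction of those near 1 depends on this choice. cahz had 7486 CPM in E and 8087 CPM in F, a ratio of 0.926 (exact 95% interval 0.839 to 1.02), and hmbsb had 714 and 672 CPM, a ratio of 1.06 (0.755 to 1.54). slc4a1a (ratio 1.27), prdx2 (1.26), gpx1a (1.22) and alas2 (1.5, 1.27 to 1.79) were somewhat higher in E. In F a single cell held 237 of the 409 cahz UMIs, and a single cell held 75 of 136 for alas2 and 77 of 128 for slc4a1a. The intervals cover counting error and not this spread over cells. In the bands of 20 to 40%, 40 to 60% and 60 to 80%, cahz stood at 1976, 7617 and 15505 CPM in E. In F, with 4, 2 and 1 cells, it stood at 2743, 23267 and 28892 CPM. Over the same bands alas2 stood at 1583, 4509 and 6863 CPM in E and at 923, 7323 and 11771 CPM in F. Of 13 membrane genes and 7 erythroid factors compared, 0 were 4-fold apart in either direction, and of 11 heme synthesis genes 1 was, abcb10, with 1 UMI in F. Since 3139 of the 3639 genes lay within 2-fold, these counts are not particular to the lists. A count of 0 in F was set to 59.3 CPM, which hides lower levels and can draw a ratio to 1. The median ratio over all genes compared was 1.0. Of 6 tumor and pigment genes compared, 5 lay within 2-fold although F had 0 UMIs of that list. The counts within 2-fold thus do not show that the samples were alike. klf17 ran the other way, with 336 CPM in E and 633 CPM in F (ratio 0.531, 0.371 to 0.785).

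The genes furthest apart lay elsewhere. Beside the globin hbaa2 (ratio 0.0233), the inducible chaperone hsp70l had 609 CPM in erythrocytes of E and 18389 CPM in those of F, a ratio of 0.0331 (0.0302 to 0.0363). hsp70.2 had 1050 and 7237 CPM, and hsp70.1 517 and 3203 CPM. In other cells hsp70l also differed, with 609 CPM in E and 5542 CPM in F, and the heat shock and immediate early list summed to 12834 and 51470 CPM in erythrocytes of E and F and to 11622 and 56677 CPM in other cells. The constitutive hspa8 was level, at 3412 and 2709 CPM in erythrocytes (ratio 1.26). Of 15 genes of that list compared in erythrocytes, these 3 hsp70 genes were at least 4-fold higher in F and 0 in E. pik3r1 (10.2 CPM in E and 198 CPM in F) and the interferon-responsive gig2d (52.4 and 811 CPM) were the next furthest toward F. The furthest toward E were icn (758 CPM in E and 39.5 CPM in F, ratio 19.2), si:dkey-238c7.12 (1681 and 98.9 CPM, ratio 17.0), si:dkey-240n22.2 (985 and 59.3 CPM, ratio 16.6) and pir (287 and 19.8 CPM, ratio 14.5), all with at most 5 UMIs in F, and their intervals reached as low as 5.29, 7.27, 5.67 and 2.59.

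**Figure D5:**
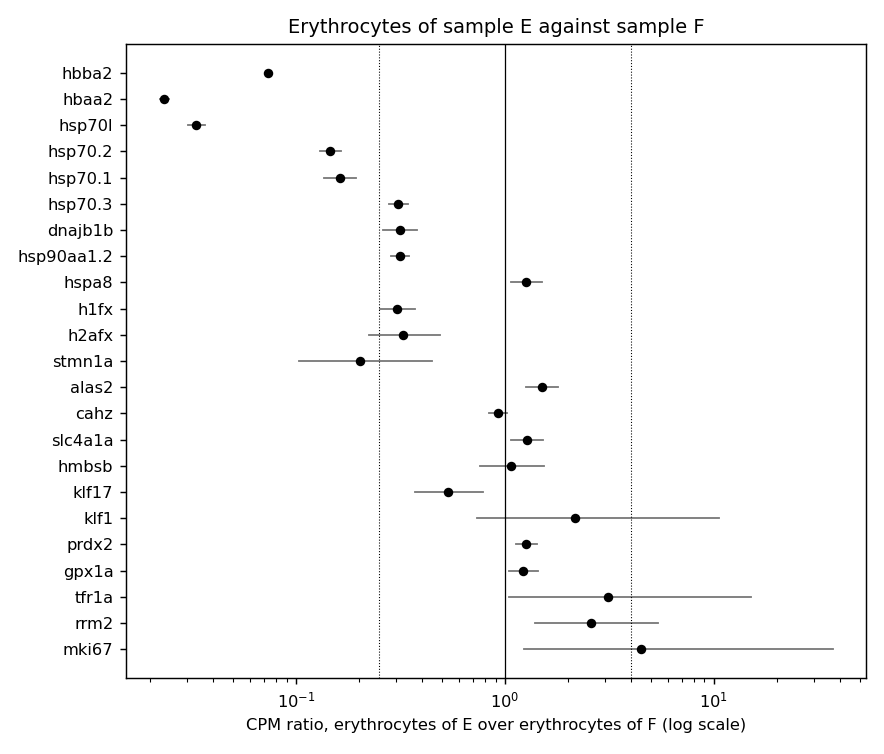
Points are ratios of CPM in erythrocytes of sample E over those of sample F (log axis) with exact 95% intervals for counting error, and dotted lines mark 4-fold in each direction. The globin pair hbba2 and hbaa2 and the inducible hsp70 genes lie left of or near the lower line, while alas2 (1.5), cahz (0.926), slc4a1a (1.27) and hmbsb (1.06) lie near 1.

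The same globin threshold picked out 39 of 13381 nuclei with at least 500 UMIs and 200 genes in the pooled library (0.291%, exact 95% interval 0.207 to 0.398%), which the choice of cells had not used. They were shallow, with a median of 1353 UMIs and 451 genes against 2165.5 UMIs and 1051 genes in other nuclei, and their globin share had a median of 33.8% and a maximum of 63.8%. Erythroid genes outside the globins stood high in them. slc4a1a had 7806 CPM in globin-rich nuclei against 19.1 CPM in other nuclei, cahz 5869 against 8.26 CPM, alas2 2602 against 3.54 CPM, and tfr1a 983 against 3.72 CPM. si:ch211-103n10.5 had 7604 against 10.6 CPM and gp9 405 against 0.978 CPM. Membrane genes summed to 19399 against 205 CPM, and heme synthesis genes to 6187 against 556 CPM, while glycolysis genes summed to 1359 against 4043 CPM. Their 34589 UMIs outside globins set a limit of 86.7 CPM for a count of 0, and a minimum of 3 UMIs, set after seeing the data, was therefore asked of a gene. With globins left out, 187 of the 433 genes called higher in erythrocytes had that many and were at least 4-fold higher than in other nuclei, 43.2%, against 5.14% of the 11145 genes in all and 3 of the 753 called lower. Another 227 of the 433 had fewer than 3 UMIs in these nuclei and could not qualify. The same held for 9387 of the 11145 genes and 693 of the 753, so the shares also depend on how many genes were detected. In cells rrm2 was among the genes that rose, but only 1 of its UMIs was found in the globin-rich nuclei (28.9 against 367 CPM). With 1 pooled library these values have no replicate check.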

How the data were processed

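Dissociated cells (samples E and F) and pooled nuclei were analysed, and the tissue sections were not used here. The authors deposited a table of unnormalized UMI counts for each library, made with Cell Ranger 3.1.0 (nuclei 5.0.1) against GRCz10, per the submitters' notes, with human BRAF and EGFP added. Members and gene lists were chosen with earlier results of these data known. Cells had been sorted to remove doublets before encapsulation, so doublets formed in droplets could remain, and no caller was run here. UMIs were summed per sample over erythrocytes and over other cells and tested by the quasi-likelihood method of edgeR 4.0.16 in R 4.3.3 (filterByExpr, TMM), leaving out genes with symbols ba1, ba1l or starting with hba or hbb. DESeq2 1.42.0 was an alternative. CPM used UMIs outside all 17 globin genes. Deviations of erythrocytes and other cells of the same sample correlated at 0.149, and these sums come from 1 library by label, so the fish served as a block in an alternative fit. Intervals are exact 95% intervals (Poisson, binomial or conditional). Beyond the lists, the 12 genes with the largest rise and the 8 with the largest fall that had the same direction in both samples and at least 50 UMIs were named, and 4 each way between samples. Of these, 1 gene is not reported here. The test was checked on simulated counts.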

Additional observations from a re-analysis of the deposited data

Results flagged for a closer look

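For 267 listed genes outside the globins, the ratio of erythrocytes over other cells was set side by side for the 2 samples. In 13 the intervals excluded 1 in opposite directions, and 6 of these had at least 10 UMIs in each of the 4 sums. The difference between samples was not tested, since each ratio comes from 1 library. The chaperone gene hsp70.3 had a ratio of 2.63 in sample E and 0.780 in sample F. Its co-chaperone dnajb1b had 1.49 in E and 0.813 in F, and hsp90aa1.2 had 1.27 in E and 0.655 in F. In erythrocytes these 3 genes were higher in F than in E, but in other cells the gap was wider: hsp70.3 had 2403 CPM in erythrocytes of E and 7810 CPM in those of F, against 913 and 10018 CPM in other cells. zgc:92066, a ferritin heavy chain gene named fthl27 in the gene name table, had a ratio of 1.99 in E and 0.635 in F. The nucleosome-binding hmgn2 had 1.12 in E and 0.471 in F. The microtubule regulator stmn1a went the other way, with 0.367 in E and 2.21 in F, where it rested on 10 UMIs in erythrocytes.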

How the results depend on the processing

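The 7 erythrocytes of sample F, with 50573 UMIs outside globins, limit every comparison that needs both samples. A minimum globin share of 50% left 178 erythrocytes in E and 1 in F, and a minimum of 500 genes left 200 in E. Genes called higher numbered 261 with DESeq2 and 687 at a 50% share, and ranged from 0 to 705 when a sum was left out. Genes called lower numbered 2323 with DESeq2's size factors, 236 with the fish as a replicate block, 2054 at a 50% share, 1738 against other cells without a transgene UMI and 1605 for erythrocytes without one, and ranged from 0 to 2192 when a sum was left out. Of 113 named called genes, 94 kept their call with the replicate block, 105 with DESeq2, 52 without erythrocytes of F and 0 without those of E. On the scale not set to the median, dct and pmela turned to 1.93 and 2.82 against other cells without a transgene UMI, a reference that leaves out tumor cells. When a sum was left out, the log2 fold change of abcb10 ranged from -0.052 to 3.40 and the log2 fold change of ulk1b from -6.82 to 3.04, both lowest without erythrocytes of E. Genes 4-fold higher in E than in F numbered 14 at a 50% share and 207 after TMM scaling, and higher in F 9 with a minimum of 30 UMIs, 2 at a 50% share and 9 after TMM scaling. Added after seeing the data, leaving out all 17 globins gave 433 and 795 genes of 11260, and the 20 to 50% band 89 genes higher in E and 25 in F. The share of erythrocytes of E with a UMI was 98.8% for alas2 and 100% for cahz without thinning, and 96.7% for alas2 when thinned outside globins. A minimum share of 10% gave 83 nuclei. The causes were not tested.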
